A study of Mus musculus with 15 samples.

Results

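The effect of cyclosporin A (CSA) on the response of A.E7 cells to engagement of the T cell receptor (TCR) was read from 6 of the 15 arrays of the study, namely the arrays titled CSA and the arrays titled Anergic on chip types A, B and C. A.E7 is a mouse CD4 T helper clone, so the cells stand for 1 clone and not for T cells in general. The Anergic arrays hold RNA of cells given anti-TCR alone, and the CSA arrays hold RNA of cells given anti-TCR together with CSA. The remaining 9 arrays hold mock-treated cells, cells given anti-TCR with a protein kinase C inhibitor that the labels do not name further (PKCi), and cells given anti-TCR with Rapamycin, PD98059 and SB203580 (Combo); they set the floor and show where each level lies. Every pool joined RNA of 2, 4 and 6 h of treatment and was hybridised once to each chip type. With 1 array for each treatment on a chip type, no value has a spread over cultures and no test was possible.

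Values are array intensities as deposited. For each probe set the CSA value was divided by the anti-TCR value after both had been raised to a floor, the median of all 5 arrays of the chip type (51.1 on A, 69.5 on B and 55 on C). A probe set was kept where the brighter of the pair reached 4 times the floor, which 8349 of 36701 probe sets did (22.7%). A gene was read from its brightest probe set, and 5453 of 15964 genes were measured in this way. The words rose and fell are used of genes whose CSA and anti-TCR values lay at least 2-fold apart. Where the floor stood in for the dimmer value, the fold is a lower limit and is given as "at least". The array cannot tell fewer cells with a transcript from less transcript per cell.

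Engagement of the TCR releases calcium inside the cell, and calcium-bound calmodulin activates the phosphatase calcineurin. Calcineurin removes phosphate from the NFAT transcription factors, which then enter the nucleus and bind DNA, often next to AP-1 (Fos and Jun) proteins, at cytokine and receptor genes. CSA binds the immunophilin cyclophilin, and the pair of molecules blocks calcineurin. TCR signals that run through protein kinase C and the MAP kinases do not pass through calcineurin, and NFAT without AP-1 is linked in T cells to the unresponsive state called anergy.

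Most T helper cell markers, which are not particular to this clone, were present in both conditions. Of 9 T helper markers on the arrays 8 were measured, with Cd4 at 608 with anti-TCR and 616 with CSA, Cd3g at 1276 and 2085, and Cd3e at 1147 and 666, while Cd5 was below the floor (6.7 and 5.5). Summed over the list the level was 10506 with anti-TCR and 7851 with CSA, and the median log2 ratio was -0.64. Cd2, which fell 3.49-fold (from 1537 to 440), was the 1 member past 2-fold, and Zap70 lay at -0.76. B cell markers were measured in 0 of 10 cases and markers of erythroid cells and neutrophils in 0 of 8. Ctss and Cd14 were the 2 genes measured of 11 that mark macrophages and dendritic cells, and the sum of the list was 1107 with anti-TCR and 1285 with CSA. Of 8 CD8 T and NK cell markers 4 were measured, the lectin receptor genes Klrd1, Klrc1, Klrk1 and Klre1, with a sum of 3984 with anti-TCR and 5581 with CSA, and 4 of the 8 lay at or below the floor on both arrays.

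Promoters are shown for the genes that lead the lost and the gained side, since the calcineurin pathway ends in factors that bind DNA. Each sequence holds the 250 bases before the first start that the RefSeq table of GRCm38.p6 lists for the gene, 5′ to 3′ on the strand of the gene, and capitals mark the NFAT core GGAAA on either strand (TTTCC on the reverse). The first 3 genes below had all bright probe sets far lower with CSA: Ifih1 (chr2:62646256-62646505 on the minus strand), Nr4a2 (chr2:57124004-57124253 on the minus strand) and Kif15 (chr9:122950831-122951080 on the plus strand).
Ifih1: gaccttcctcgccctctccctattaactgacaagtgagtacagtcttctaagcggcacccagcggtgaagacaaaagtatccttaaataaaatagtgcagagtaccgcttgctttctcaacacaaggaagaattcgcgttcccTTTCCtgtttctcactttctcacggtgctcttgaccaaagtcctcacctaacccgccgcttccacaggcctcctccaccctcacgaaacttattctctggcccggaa
Nr4a2: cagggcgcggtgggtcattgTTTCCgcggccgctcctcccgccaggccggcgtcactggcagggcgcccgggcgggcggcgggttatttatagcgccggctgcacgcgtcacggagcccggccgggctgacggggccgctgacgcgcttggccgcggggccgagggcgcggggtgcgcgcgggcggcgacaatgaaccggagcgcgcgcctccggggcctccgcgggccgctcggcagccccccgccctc
Kif15: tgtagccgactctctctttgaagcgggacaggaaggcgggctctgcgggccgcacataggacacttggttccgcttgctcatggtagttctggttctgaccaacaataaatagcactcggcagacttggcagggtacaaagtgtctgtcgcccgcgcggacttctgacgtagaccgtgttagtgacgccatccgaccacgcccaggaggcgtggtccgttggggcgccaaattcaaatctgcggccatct

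The chemokine genes Xcl1 (chr1:164935523-164935772 on the minus strand) and Ccl1 (chr11:82179813-82180062 on the minus strand) fell at least 38.8-fold and were chosen after their values were seen.
Xcl1: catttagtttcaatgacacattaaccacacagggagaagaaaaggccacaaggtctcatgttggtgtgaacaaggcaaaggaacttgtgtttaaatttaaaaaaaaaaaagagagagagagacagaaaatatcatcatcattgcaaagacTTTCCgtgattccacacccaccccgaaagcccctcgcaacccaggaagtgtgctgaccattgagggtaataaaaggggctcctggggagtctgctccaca
Ccl1: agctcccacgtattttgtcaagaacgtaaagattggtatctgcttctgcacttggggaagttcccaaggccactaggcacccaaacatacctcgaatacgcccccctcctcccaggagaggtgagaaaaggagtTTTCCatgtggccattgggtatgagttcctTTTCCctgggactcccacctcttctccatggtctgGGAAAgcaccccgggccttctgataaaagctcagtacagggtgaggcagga

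The next 3 genes had all bright probe sets far higher with CSA: Ier5l (chr2:30474200-30474449 on the minus strand), Rhoq (chr17:86962861-86963110 on the plus strand) and Pde4b (chr4:102421305-102421554 on the plus strand).
Ier5l: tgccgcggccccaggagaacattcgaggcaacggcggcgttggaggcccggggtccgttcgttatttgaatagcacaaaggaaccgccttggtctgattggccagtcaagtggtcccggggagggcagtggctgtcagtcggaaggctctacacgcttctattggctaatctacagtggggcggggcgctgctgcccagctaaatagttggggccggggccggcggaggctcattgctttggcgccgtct
Rhoq: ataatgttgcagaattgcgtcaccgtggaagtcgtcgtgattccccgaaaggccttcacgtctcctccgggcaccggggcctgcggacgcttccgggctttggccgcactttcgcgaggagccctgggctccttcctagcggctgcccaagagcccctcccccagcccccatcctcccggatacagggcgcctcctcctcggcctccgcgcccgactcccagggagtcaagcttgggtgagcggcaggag
Pde4b: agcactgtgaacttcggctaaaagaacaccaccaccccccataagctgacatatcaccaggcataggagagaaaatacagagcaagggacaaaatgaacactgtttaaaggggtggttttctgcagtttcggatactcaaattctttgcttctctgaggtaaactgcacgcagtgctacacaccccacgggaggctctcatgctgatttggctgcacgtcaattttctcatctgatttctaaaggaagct

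The core was found 3 times in the Ccl1 window, 1 time each in those of Ifih1, Nr4a2 and Xcl1, and 0 times in those of Kif15, Ier5l, Rhoq and Pde4b. The AP-1 letters TGANTCA and the cyclic AMP response element TGACGTCA, searched on both strands, were found in 0 of the 8 windows. Such matches describe letters and not binding sites, and the 5-base core is common. It lay in 55.6% of all 27025 promoters of the same length, 1 per gene, and in 54.4% of the 4444 promoters of measured genes. The share was 59.2% for genes that fell (141 of 238 with a promoter entry) and 64.9% for those that fell at least 4-fold (48 of 74), but 55.2% for those lower on all of several bright probe sets (16 of 29), near the share of measured genes. For genes that rose it was 49.8% (102 of 205), 47.8% for those that rose at least 4-fold (11 of 23) and 25% for those higher on all of several bright probe sets (4 of 16). The AP-1 letters lay in 6.30% of the promoters of genes that fell (15 of 238) and 5.37% of those of genes that rose (11 of 205). Their share was 3.96% for measured genes and 6.87% for all 27025 promoters. The cyclic AMP element lay in 0.840% (2 of 238), 2.93% (6 of 205), 2.77% and 1.62% in the same order.

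With CSA 291 genes fell, which is 5.34% of the genes measured, and 264 rose, which is 4.84%, an order that turned with a lower brightness minimum (413 fell and 467 rose) and without chip A. The balance was uneven among large differences, where 91 genes fell at least 4-fold (1.67%) and 29 rose at least 4-fold (0.532%). Most genes differed little, since 74.4% lay within 1.5-fold, and the median log2 ratio over genes measured was 0.03. Among single probe sets 484 fell (5.8%) and 410 rose (4.91%), of which 139 (1.66%) and 62 (0.743%) did so at least 4-fold. Sorted by function, with classes assigned after the values were seen, the genes 4-fold lower held 11 secreted factors, 8 surface receptors, 11 transcription factors and chromatin enzymes, 12 regulators of signalling and 5 transporters. The genes 4-fold higher held 2 secreted factors, 1 surface receptor, 3 transcription factors, 5 regulators of signalling and 4 transporters, and the others, 44 lower and 14 higher, fell in no such class.

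**Figure D1:**
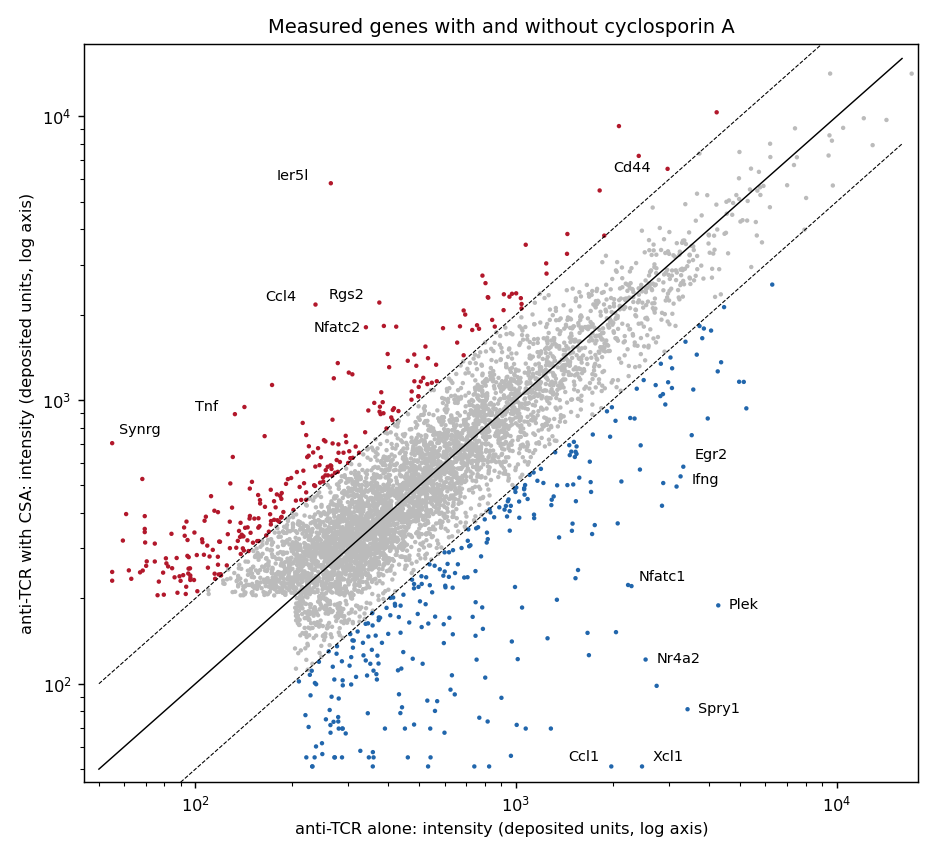
Intensity with CSA (vertical, log axis, deposited units) against intensity with anti-TCR alone (horizontal, log axis) for the 5453 measured genes, each a point, with values raised to the floor. Blue points are the 291 genes that fell, red points the 264 that rose, dashed lines mark 2-fold, and the named losses such as Xcl1, Ccl1 and Spry1 lie near the floor with CSA.

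The 3 chip types did not contribute alike. Genes that rose made up 4.06% of the genes measured on chip A, 4.00% on B and 6.86% on C, and genes that fell made up 5.47%, 4.76% and 5.77%. Of the 107 genes that rose on chip C, 40 (37.4%) had an anti-TCR value at least 2-fold below all 4 other arrays of that chip, mock included, against 16 of 89 (18.0%) on A and 16 of 68 (23.5%) on B. In such genes the anti-TCR array stands apart and the CSA array lies with the other treatments. CSA itself was at least 2-fold above all 4 other arrays in 32 of the 264 genes that rose and at least 2-fold below them in 20 of the 291 that fell. Of the genes that fell, 89 had an anti-TCR value at least 2-fold above all 4 other arrays. Whether the anti-TCR array of chip C stands apart for a technical reason was not tested. Without chip C 163 genes rose.

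Probe sets of the same gene are the nearest check on a ratio. Over 792 pairs of bright probe sets on different chip types, covering 706 genes, the technical SD of the log2 ratio was 0.48, a factor of 1.40, and 89.3% of the pairs lay within 1 log2 unit of each other. Since 74.4% of measured genes lay within 1.5-fold, most pairs would be that close without agreement between probe sets. This SD covers hybridisation and probe design, and not the cultures, because the chip types read the same pools. A fold near 2 is therefore weakly supported on a single probe set, and 225 of the 291 genes that fell and 197 of the 264 that rose had 1 bright probe set.

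Further probe sets mostly had the sign of the probe set that made the call. Of 66 genes that fell and had several bright probe sets, all probe sets lay below 0 in 60 (90.9%), and all were at least 2-fold lower in 35. Of 67 such genes that rose, all lay above 0 in 57 (85.1%), and all were at least 2-fold higher in 23. Over all 1168 measured genes with several bright probe sets, 341 lay wholly below 0, 367 wholly above 0 and 460 were mixed. These counts include the probe set that made the call. Readings on another chip type than the one that made the call do not. For these readings the call was made on each chip type separately, from the gene's brightest probe set there. Each pair of chips was read both ways, so a gene past 2-fold on both counts in both directions and the readings are not independent. Of 102 bright readings of genes called lower on another chip, 91 had the same sign and 52 were at least 2-fold lower (median log2 ratio -1.05). Over all 1572 bright readings, which include these, 6.49% were at least 2-fold lower. Of 85 such readings of genes that rose, 70 had the same sign and 20 were at least 2-fold higher (median 0.60), against 5.41% of all. Where the brightness minimum on the second chip was dropped, 130 of 201 readings kept the sign for genes that fell and 124 of 185 for genes that rose. At least 2-fold the same way were 61 of the 201 (30.3%, median -0.35) and 28 of the 185 (15.1%, median 0.28). Most of these calls thus did not recur at 2-fold on another chip type.

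**Figure D2:**
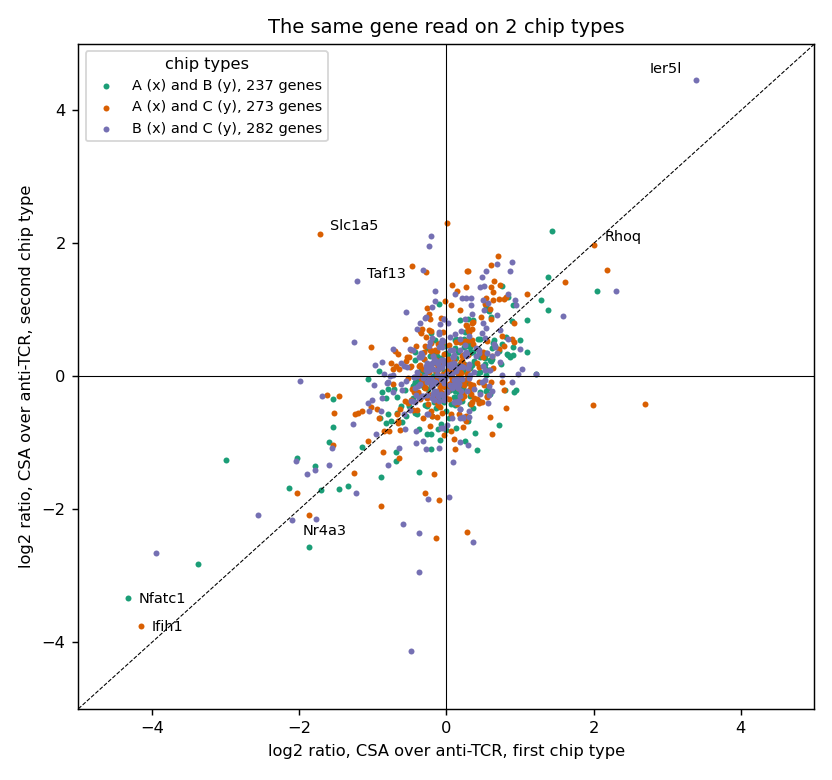
Log2 ratio of CSA over anti-TCR alone for the same gene on a pair of chip types, 792 pairs with both probe sets bright. Colours give the chip pair, the dashed line marks equal ratios, and Nfatc1, Ifih1 and Ier5l lie far from 0 on both chips while Slc1a5 and Taf13 lie on opposite sides.

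The 35 genes lower on all of their bright probe sets were led by Ifih1, Nr4a2, Kif15 and Plek. Ifih1, a cytoplasmic sensor of double-stranded RNA, read 137 with mock, 2050.5 with anti-TCR, 152 with CSA, 93.3 with PKCi and 276 with Combo on chip C, 13.5-fold lower with CSA. On chip A the same gene read 98.6, 1016, 57.2, 58.7 and 222 in that order. In both readings the anti-TCR array was high and the other 4 were low. Kif15, a mitotic kinesin, fell on 3 probe sets of chip B, with log2 ratios from -4.80 (f-suffixed) to -3.17. Plek, which encodes the protein kinase C substrate pleckstrin, read 173 with mock, 4274.5 with anti-TCR, 189 with CSA, 161 with PKCi and 1633 with Combo, 22.6-fold lower, and -3.14 on a second probe set. Gch1, the entry enzyme of tetrahydrobiopterin synthesis, fell 10.4-fold (from 2292 to 221), Ipcef1 at least 15.4-fold (from 1072 to 17.5), Mmd 13.4-fold (from 1688 to 126), Ndrg1 7.63-fold (from 802 to 105) and Vsir, the gene of the inhibitory receptor VISTA, 4.60-fold (from 3963 to 861). A letter r, i, f, s or g before the end of a probe set name marks shared sequence or a broken design rule, and such readings are called suffixed here; 117 of the 555 changed genes (21.1%) and 23.4% of measured genes rested on one.

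**Figure D3:**
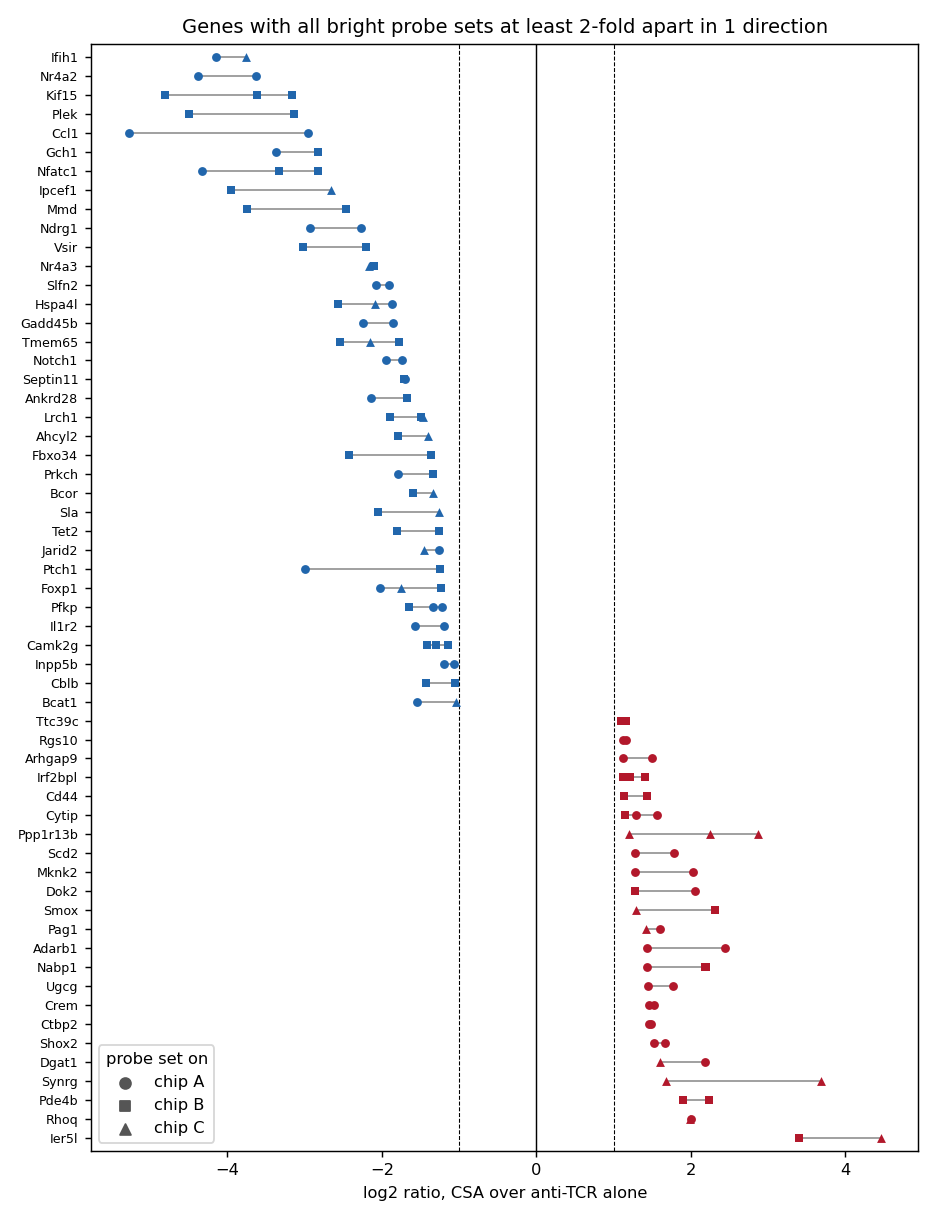
Log2 ratio of CSA over anti-TCR alone for each bright probe set of the 35 genes lower and the 23 genes higher on all of their bright probe sets. Symbols give the chip type, grey lines join probe sets of a gene, dashed lines mark 2-fold, and Ifih1 and Ier5l have the ratio nearest to 0 that is farthest from it on each side.

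Secreted factors had the lowest medians of the fixed lists. Of 6 measured T helper cytokine genes 5 fell and 0 rose (median log2 ratio -2.67, against 0.03 over all genes). Counts in this and later lists are to be read beside the 5.34% of measured genes that fell and the 4.84% that rose. Il13, Csf2 and Il5 reached the brightness minimum through the anti-TCR value alone. Among other named genes so did Xcl1, Ccl1, Ccl9, Tnfsf9, Lta, Lag3, Ifih1, Nr4a2, Kif15, Plek, Nfatc1, Spry1, Map3k8, Jund, Ctla4 and Jak2. Tnf and Cd69 reached it through the CSA value alone, as did Nedd4, Snx20, Synrg, Ctla2b, Ccr2 and Ifngr1, and these names are not a full list. For such genes a large ratio follows in part from the rule, so list medians and counts that hold them are no test. Il13, a type 2 cytokine, read 10.5 with mock, 1005 with anti-TCR, 71.6 with CSA, 7.2 with PKCi and 193 with Combo, 14.0-fold lower with CSA. Csf2, the gene of the growth factor GM-CSF, read 21.6, 1672, 151, 9.7 and 395 in the same order, 11.1-fold lower. Ifng, the gene of interferon gamma, read 151, 3261, 538, 84.1 and 1273, 6.06-fold lower. In each of the 3 genes anti-TCR alone was the highest array and Combo the next, and CSA stayed above mock. Il5 fell 6.70-fold (from 481 to 71.8) and Csf1, a macrophage growth factor, 3.54-fold (from 2448 to 692). Tgfb1, which encodes a suppressive cytokine, was the member that did not fall (2257 and 1776, log2 ratio -0.35). Il2, the T cell growth factor gene, lay below the floor on all 5 arrays (2.6 with anti-TCR and 1.2 with CSA), as did Il3, Il4, Il6 and Il10, and such values do not show whether the probe sets work.

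Chemokine genes split. Of 7 measured 4 fell and 1 rose (median -2.06, between -2.72 and -1.39 under other brightness minima). Xcl1, whose product attracts dendritic cells, read 9.5 with mock, 2472 with anti-TCR, 42.8 with CSA, 36.3 with PKCi and 141 with Combo, at least 48.4-fold lower with CSA. Ccl1 read 12.4, 1983, 21.9, 30 and 102 in that order, at least 38.8-fold lower, with -2.96 on a second probe set of the same chip. Both genes, whose promoters are printed above, were bright with anti-TCR alone and at or below the floor with CSA. Ccl9 fell at least 10.4-fold (from 532 to 6.6). The neighbouring inflammatory chemokines Ccl3 and Ccl4 went opposite ways. Ccl3 read 50.5 with mock, 1363 with anti-TCR, 328 with CSA, 8.4 with PKCi and 2750 with Combo, 4.16-fold lower with CSA. Ccl4 read 133, 237, 2171, 29.6 and 2571, 9.16-fold higher. The anti-TCR value of Ccl4 was far below that of Combo, and each gene had 1 bright probe set. Ccl22 (-0.51) and Cklf (0.61, f-suffixed) did not pass the 2-fold rule.

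Ligands of the TNF family showed the same split. Of 7 measured 4 fell and 1 rose (median -1.22, or -0.59 without suffixed probe sets). Tnfsf9, the ligand of a costimulatory receptor, fell at least 14.5-fold (from 741 to 30.5), Lta, the gene of lymphotoxin alpha, 8.67-fold (from 1254 to 145, s-suffixed), Tnfsf11, the gene of RANKL, 4.28-fold (from 2435 to 569) and Fasl, which encodes a death ligand, 2.33-fold (from 1534 to 657). Tnf, the prototype of the family, read 334.5 with mock, 133 with anti-TCR, 892 with CSA, 341 with PKCi and 1786 with Combo, 6.72-fold higher with CSA. Here anti-TCR alone was the lowest of the 5 arrays and Combo the highest. Ltb was level (2736.5 and 2803). Cd40lg, the ligand by which helper T cells license B cells, was too dim to be measured but was 124 with anti-TCR and 4.2 with CSA.

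Receptors of activated T cells fell in 7 of 12 cases. Of the 12 measured costimulatory and inhibitory receptors 1 rose, and the median was -1.10. The inhibitory receptor gene Lag3 read 74.2 with mock, 644 with anti-TCR, 91.7 with CSA, 122 with PKCi and 585 with Combo, 7.02-fold lower with CSA. Slamf1, a homophilic costimulator, fell 6.20-fold (from 1561 to 252), Tnfrsf4, the gene of OX40, 4.86-fold (from 1760 to 362.5) and Tnfrsf9 2.99-fold (from 351 to 118). Lag3 and Tnfrsf4 with CSA lay close to mock, whereas Combo left them near the anti-TCR level. Ctla4, an inhibitory receptor gene, read 660, 373, 171, 1628 and 731.5 in the same order, 2.18-fold lower with CSA, and CSA was the lowest of the 5 arrays. Pdcd1, the gene of PD-1, fell 2.13-fold and Tnfrsf1b, a TNF receptor gene, 2.15-fold. Icos (-0.59), Tnfrsf18 (-0.55), Cd28 (0.30) and Il2ra (0.66) did not pass. Cd69, an early activation marker, rose 2.39-fold, reading 40.7, 118, 280, 34.8 and 112, with CSA the highest array. Among adhesion molecules, 1 of 14 rose and 1 fell (median 0.33), against 4.84% and 5.34% of all measured genes. The 1 that rose was Cd44, a hyaluronan receptor gene, with values of 1794.5, 2970, 6532.5, 1812 and 2696 (2.20-fold higher, and 1.43 on the log2 scale on a second probe set), and the 1 that fell was Cd2, with 880, 1537, 440, 1075 and 1509 (3.49-fold lower). CSA was the highest array for Cd44 and the lowest for Cd2.

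The NFAT genes themselves diverged. Nfatc1, whose short form is itself induced by NFAT, read 342 with mock, 2236 with anti-TCR, 223 with CSA, 277 with PKCi and 820 with Combo, 10.03-fold lower with CSA. Its 3 bright probe sets on chips A and B gave log2 ratios between -4.33 and -2.82, and on all of them CSA lay below mock. Nfatc2 read 1150, 423, 1815, 795 and 438 in that order, 4.29-fold higher with CSA, and Nfatc3 read 248, 96.4, 232, 249.3 and 199.7, 2.41-fold higher. For both, anti-TCR alone was the lowest array, and each had 1 bright probe set. Nfatc4 was too dim to be measured. Over the whole calcineurin and NFAT list 2 of 14 measured genes rose and 1 fell (median -0.01). The catalytic subunit gene Ppp3ca read 869 with anti-TCR and 1733 with CSA (1.99-fold higher on an i-suffixed probe set, with log2 ratios up to 1.38 over its 3 bright probe sets), and the regulatory subunit gene Ppp3r1 read 1035 and 742 (-0.48). Rcan1, a feedback inhibitor of calcineurin that NFAT is known to induce, was dim on every array, at 61.9 with anti-TCR and 73.6 with CSA.

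The Egr and Nr4a families, immediate early genes of receptor signalling, lost some members and kept others. Nr4a2, an orphan nuclear receptor gene, read 22.7 with mock, 2536 with anti-TCR, 122 with CSA, 127 with PKCi and 1245 with Combo, 20.8-fold lower with CSA. Nr4a3 read 74.4, 4965, 1160, 149 and 2676, 4.28-fold lower on chip B and -2.16 on the log2 scale on chip C. Nr4a1 read 64, 3002, 2244, 77.3 and 2205, with a log2 ratio of -0.42 and 0.24 on a second chip. With CSA, Nr4a2 thus lay near the PKCi level, while Nr4a1 lay near the Combo level and far above mock. Egr2, a zinc finger factor linked to anergy, read 43.8, 3325, 582, 41.7 and 2116, 5.71-fold lower. Egr3 read 121, 4354, 2359, 72 and 3470 on its brightest probe set, a log2 ratio of -0.88 that does not pass, and -2.24 on a dimmer probe set of the same chip. Egr1 read 86.9, 345.5, 675, 13.4 and 639, a log2 ratio of 0.97, just short of 2-fold. Egr4 was 2.24-fold higher on an r-suffixed probe set and -0.01 on the other.

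Of all 22 immediate early genes measured, 6 fell and 3 rose (median -0.32). Besides those above, Ier3, a survival gene, fell 4.70-fold (from 3532 to 752), Fos 2.94-fold (from 370 to 126) and Jund 4.25-fold (from 635 to 149). Jund was the lowest with CSA of all 5 arrays (780 with mock, 867 with PKCi and 1205 with Combo), while Junb (-0.06), Fosb (-0.34) and Atf3 (-0.43) stayed within 2-fold. Maff, which encodes a small Maf protein, rose 2.13-fold (from 472 to 1003, against 248 with Combo and 41.1 with mock).

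Other transcription factors fell on single probe sets. Irf4, which steers helper cell differentiation, read 269 with mock, 2076 with anti-TCR, 367.5 with CSA, 206 with PKCi and 1391 with Combo, 5.65-fold lower with CSA. Of 12 lineage factors measured it was the 1 that fell, and Rora was the 1 that rose (2.08-fold). Over all measured genes 5.34% fell and 4.84% rose. Gata3 (0.07), Maf (-0.53) and Bcl6 (0.64) did not pass. Tgif1, a homeobox repressor gene, read 450, 748, 148, 651 and 918, and Hdac11, a histone deacetylase gene, 252, 436, 78.8, 243.5 and 282. In both, CSA was the lowest array and the other 4 lay closer together (5.07-fold and 5.53-fold lower than anti-TCR alone). Pou2f2, the gene of Oct-2, fell at least 7.77-fold (from 540 to 34.1). Among chromatin regulators with several bright probe sets, Jarid2 (from -1.45 to -1.26), Bcor (-1.60 to -1.34) and Tet2 (-1.81 to -1.26) were lower on all of them, and so was Notch1 (-1.95 to -1.73).

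**Figure D4:**
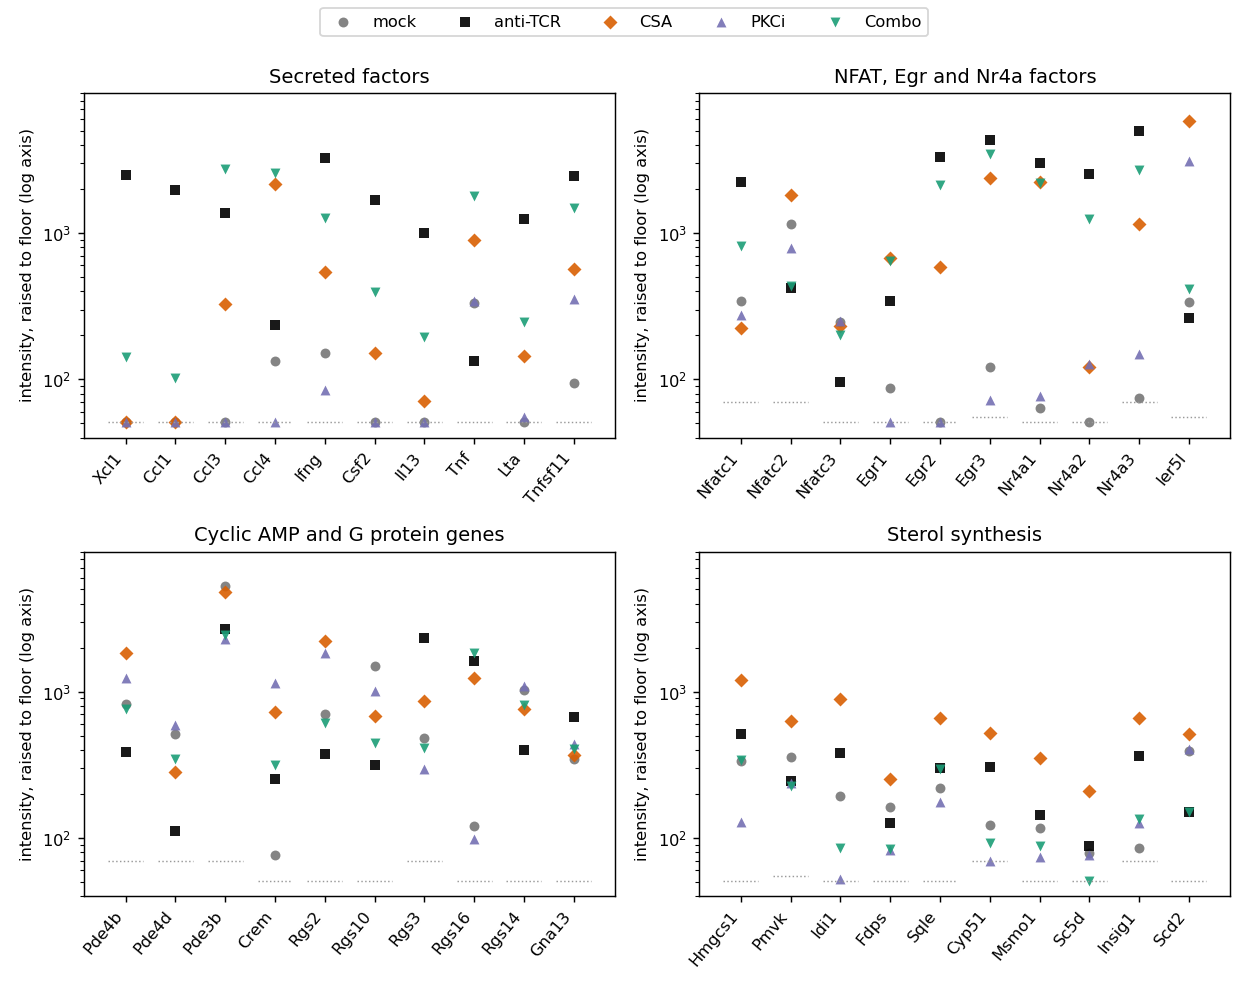
Intensity on the 5 arrays (vertical, log axis, raised to the floor, which dotted lines mark) for selected genes in 4 groups, with 1 array per point. Anti-TCR is the highest array for Xcl1, Ccl1, Csf2 and Nr4a2 and the lowest for Nfatc2, Nfatc3 and Pde4b, while CSA is the highest for the sterol genes drawn.

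Genes that act close to the receptor mostly stayed within 2-fold. Of 20 measured 5 fell and 2 rose (median -0.25), against 5.34% and 4.84% of all measured genes. Lcp2, an adaptor that joins the receptor kinases to calcium release, read 651 with mock, 2879 with anti-TCR, 510 with CSA, 343.5 with PKCi and 1175 with Combo, 5.65-fold lower with CSA. Rasgrp1, which loads Ras with GTP, fell 2.66-fold (from 399 to 150), the kinase gene Fyn 2.31-fold (from 4059 to 1758) and the phosphatase gene Ptprc 2.26-fold (from 1488 to 658). The transmembrane adaptor Sit1, an inhibitor of TCR signalling, read 251, 92.2, 355.5, 292.5 and 175, 3.86-fold higher with CSA. Pag1, an adaptor that brings the inhibitory kinase Csk to the membrane, read 460, 138, 369, 470 and 271, 2.67-fold higher, and 1.61 on the log2 scale on chip A. For both adaptors anti-TCR alone was the lowest array and CSA lay near mock. Lat (0.10), Csk (0.06) and Cd4 (0.02) were level.

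Regulators of MAP kinase signalling moved in both directions. Spry1, a brake on Ras and MAP kinase signalling, read 41.7 with mock, 3428 with anti-TCR, 81.3 with CSA, 103 with PKCi and 1464.5 with Combo, 42.2-fold lower with CSA. Map3k8, a kinase gene of the ERK and NF-kB routes, read 5.7, 824, 6, 7.9 and 372, at least 16.1-fold lower. Dusp6, an ERK phosphatase gene, fell 2.91-fold (-0.77 on a second probe set). In contrast Dusp1 rose 2.67-fold (from 95.2 to 254.5) and Dusp7 2.59-fold (from 179.5 to 465). MAP kinase phosphatase and Sprouty genes thus gave 2 up and 2 down of 8 (median -0.08, and -1.10 with the minimum at 8 times the floor). Of 14 NF-kB genes 4 fell and 0 rose (median -0.54). They were Nfkbid (2.47-fold, from 6298.5 to 2553), Nfkb2 (2.32-fold), Nfkbib (2.26-fold) and Bcl3 (2.14-fold), with Relb at -0.54 and Nfkbiz at 0.89. Itpkb, a kinase of inositol phosphate, fell 2.58-fold and Camk2g, a calmodulin-dependent kinase gene, 2.22-fold, with 3 bright probe sets between -1.41 and -1.15.

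Genes tied to anergy moved in both directions. Of 15 measured ligases, kinases and proteases 3 fell and 2 rose (median -0.25), against 5.34% and 4.84% of all measured genes. The lowest member of the list was Ndrg1, given above, which fell 7.63-fold and was lower on both bright probe sets (log2 ratios of -2.93 and -2.27). The ubiquitin ligase gene Cblb read 681 with mock, 1344 with anti-TCR, 500.5 with CSA, 509.5 with PKCi and 1304 with Combo, 2.69-fold lower with CSA, and Rnf128, the ligase GRAIL, read 247, 496, 219.5, 332 and 603, 2.26-fold lower. For both, CSA lay below mock by less than the technical factor of 1.40, and Combo lay near anti-TCR alone. Nedd4, another ligase gene, read 271, 60.8, 396, 412 and 188.5, 6.52-fold higher with CSA. Its anti-TCR value was the lowest of the 5 arrays of chip C. Itch (-0.25), Cbl (-0.10) and Dgkz (0.17) did not pass, and Dgka was too dim (125 and 74).

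On the gained side, Ier5l stood out. Ier5l, an immediate early response gene, read 338 with mock, 264.5 with anti-TCR, 5812 with CSA, 3103 with PKCi and 412 with Combo on chip C, 22.0-fold higher with CSA. On chip B it read 623, 485, 5103, 1693 and 685, a log2 ratio of 3.40. Both readings were high with CSA and PKCi and low on the other 3 arrays. Rhoq, a small GTPase gene, was likewise high with CSA and PKCi, with 46, 128.5, 508, 520 and 169 on chip C (3.95-fold higher) and 57.5, 29.3, 205, 411 and 48.1 on chip A. Synrg, a trafficking adaptor gene, read 1048, 41, 705, 699 and 669, at least 12.8-fold higher, and there the anti-TCR array alone was low.

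Genes of cyclic AMP and G protein signalling were among those that rose, with 5 up and 1 down of 16 measured (median 0.17). The shares over all measured genes were 4.84% and 5.34%. Rgs2, which shortens G protein signals, read 707 with mock, 375 with anti-TCR, 2207 with CSA, 1835 with PKCi and 608 with Combo, 5.89-fold higher with CSA. The cyclic AMP phosphodiesterase gene Pde4b read 819, 387, 1825, 1245.5 and 759, 4.71-fold higher, and 1.89 on the log2 scale on a second probe set. Crem, a cyclic AMP-responsive factor gene, read 76.7, 252, 722.5, 1139 and 315 on an s-suffixed probe set, 2.87-fold higher, and 1.46 on a second one. All 3 genes were highest with CSA and PKCi. Pde4d rose 2.54-fold (from 111 to 281) and Rgs10 2.17-fold (from 316 to 686), but for both mock was higher than CSA (512 and 1487). The 1 that fell was Rgs3 (2.72-fold, and -0.37 on a second chip). Of 23 genes higher on all of their bright probe sets, Pde4b, Crem and Rgs10 came from this list.

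Of 21 measured sterol and fatty acid genes 7 rose, 0 fell and 14 lay within 2-fold (median 0.72, but 0.14 without suffixed probe sets and also with the minimum at 2 times the floor). Over all measured genes 4.84% rose and 5.34% fell. Hmgcs1, the synthase ahead of HMG-CoA reductase, read 335 with mock, 514 with anti-TCR, 1198 with CSA, 127.5 with PKCi and 341 with Combo, 2.33-fold higher with CSA. Idi1, an isoprenoid isomerase gene, read 194, 378, 892, 52.8 and 85.9, 2.36-fold higher. Sqle, the gene of squalene epoxidase, read 220, 302, 660, 175 and 295, 2.19-fold higher. In each of these CSA was the highest array by at least 2-fold, and the same held for Msmo1 (2.48-fold higher than anti-TCR alone) and Sc5d (2.38-fold, i-suffixed). Pmvk, the gene of phosphomevalonate kinase, was 2.55-fold higher (f-suffixed), and the desaturase gene Scd2 3.43-fold (f-suffixed, 1.27 on the log2 scale on a second probe set). Insig1 (0.84) and Cyp51 (0.77) were also highest with CSA but did not pass, and Acaca (-0.99), Mvd (-0.70, r-suffixed) and Fasn (-0.03) lay below 0. These folds lie between 2 and 4, and 6 of the 7 genes rested on 1 bright probe set.

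Further genes that rose include Ctla2b, a protease inhibitor gene (from 142 to 945, 6.65-fold, with 1250 in mock), Snx20, a sorting nexin gene (from 68.3 to 527, 7.72-fold, with 301 in mock), and the phosphate transporter gene Slc20a1 (from 340 to 1806, 5.31-fold, with 789 in mock). For Ctla2b and Snx20 anti-TCR alone was the lowest array. Slc20a1 and Slc46a3 (at least 5.61-fold higher, from 53.8 to 390) were highest with CSA. Rasa1, a Ras GTPase activator gene, read 631 with mock, 270 with anti-TCR, 1193 with CSA, 366.5 with PKCi and 354 with Combo, 4.42-fold higher with CSA. Ccr2, a chemokine receptor gene, read 668, 131, 630, 216 and 86.2, 4.82-fold higher, at the mock level. Fkbp5, which encodes another immunophilin, rose 2.06-fold and was highest with CSA (849.5, against 412 with anti-TCR). On all bright probe sets Dgat1 (1.60 and 2.18), Ugcg (1.44 and 1.77), Nabp1 (from 1.44 to 2.19) and Ctbp2 (1.46 and 1.49) were higher.

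Cytokine receptor and resting-state genes were mixed, with counts to be read beside the 5.34% of all measured genes that fell and the 4.84% that rose. Of 16 cytokine receptor and Stat genes 3 fell and 1 rose (median -0.19). The kinase genes Jak2 and Jak3 fell 3.24-fold (from 559 to 172) and 2.74-fold (from 2873 to 1050, s-suffixed) and Il18rap 3.67-fold, while Ifngr1 rose 3.21-fold (from 130 to 418, with 551 in mock). Socs1, a feedback inhibitor of Jak kinases, fell 2.09-fold, the 1 member of 5 in its list that did (median -0.67). Of 11 resting T cell genes 3 fell and 1 rose (median 0.41). The lowest member was Slfn2, which fell 4.22-fold on an i-suffixed probe set (from 784.5 to 186, with 538 in mock) and gave -1.91 on a second. CSA was its lowest array by at least 2-fold. Foxo1, which maintains quiescence, rose 3.40-fold (from 222 to 752.5, with 291 in mock), and Foxp1 fell 3.37-fold on an i-suffixed probe set and on both others (-2.03 to -1.23). Of 11 granzyme and killer lectin genes 2 fell and 1 rose (median 0.28). Gzmb, the gene of the cytotoxic protease granzyme B, was level (2021 and 2141), Gzma was 2.16-fold lower on an s-suffixed probe set, and Gzmg rose 2.53-fold.

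In growth and metabolic lists between 0 and 3 genes changed in each direction, counts to be read beside the 5.34% and 4.84% of all measured genes that fell and rose. The cyclin gene Ccnd2 fell 5.12-fold (from 1727 to 337, with 279 in mock), the 1 of 7 cyclins and inhibitors that did (median 0.06), and Cdkn1a was level (596 and 657). Of 8 replication and mitosis genes 2 fell, Kif15 and Cdc45 (2.12-fold, r-suffixed), and 0 rose (median -0.59). Glycolysis gave 2 down and 1 up of 12 (median -0.28), with Pfkp 2.52-fold (g-suffixed) and Pgam1 2.11-fold lower and the oxygen sensor gene Egln3 3.29-fold higher. Of 24 nucleolar genes 2 fell and 0 rose (median -0.28), namely Lyar (2.14-fold) and the nucleolin gene Ncl (2.11-fold). Of 17 amino acid response genes 3 fell, Sesn2 (at least 8.36-fold, i-suffixed), Slc3a2 (2.15-fold) and Asns (2.02-fold), and 1 rose, Slc1a5 (median -0.23). Heat shock genes gave 2 down of 15 (median -0.33), Hspa1a (3.16-fold) and Hspa1b (2.17-fold), whose sequences are near-identical. Apoptosis genes gave 1 down, Gadd45b (3.61-fold, f-suffixed), and 1 up, Bbc3 (2.69-fold, r-suffixed), of 7 (median -0.14), and of 9 interferon response genes 1 fell, Gbp3 (2.66-fold, median 0.17). Of 10 calcium entry and calmodulin genes 2 fell, Itpkb and Camk2g above (median -0.13, and -0.96 with the minimum at 8 times the floor).

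The reference lists set the scale for small shifts. Of 21 respiratory chain and ATP synthase genes 0 passed the 2-fold rule (range -0.45 to 0.68, median 0.19). Of 21 constitutive proteasome genes 1 fell, Psmc3 (2.51-fold, median -0.05), of 18 cytosolic ribosomal protein genes 1, Rpl41 (2.62-fold, f-suffixed, median -0.25), and of 9 housekeeping genes 1, Gusb (2.19-fold, r-suffixed, median -0.48). List medians between -0.48 and 0.19 therefore also occur in lists of housekeeping function. Some genes sit in more than 1 list, such as Cd2, Pag1 and Il7r, so the counts of different lists are not independent.

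**Figure D5:**
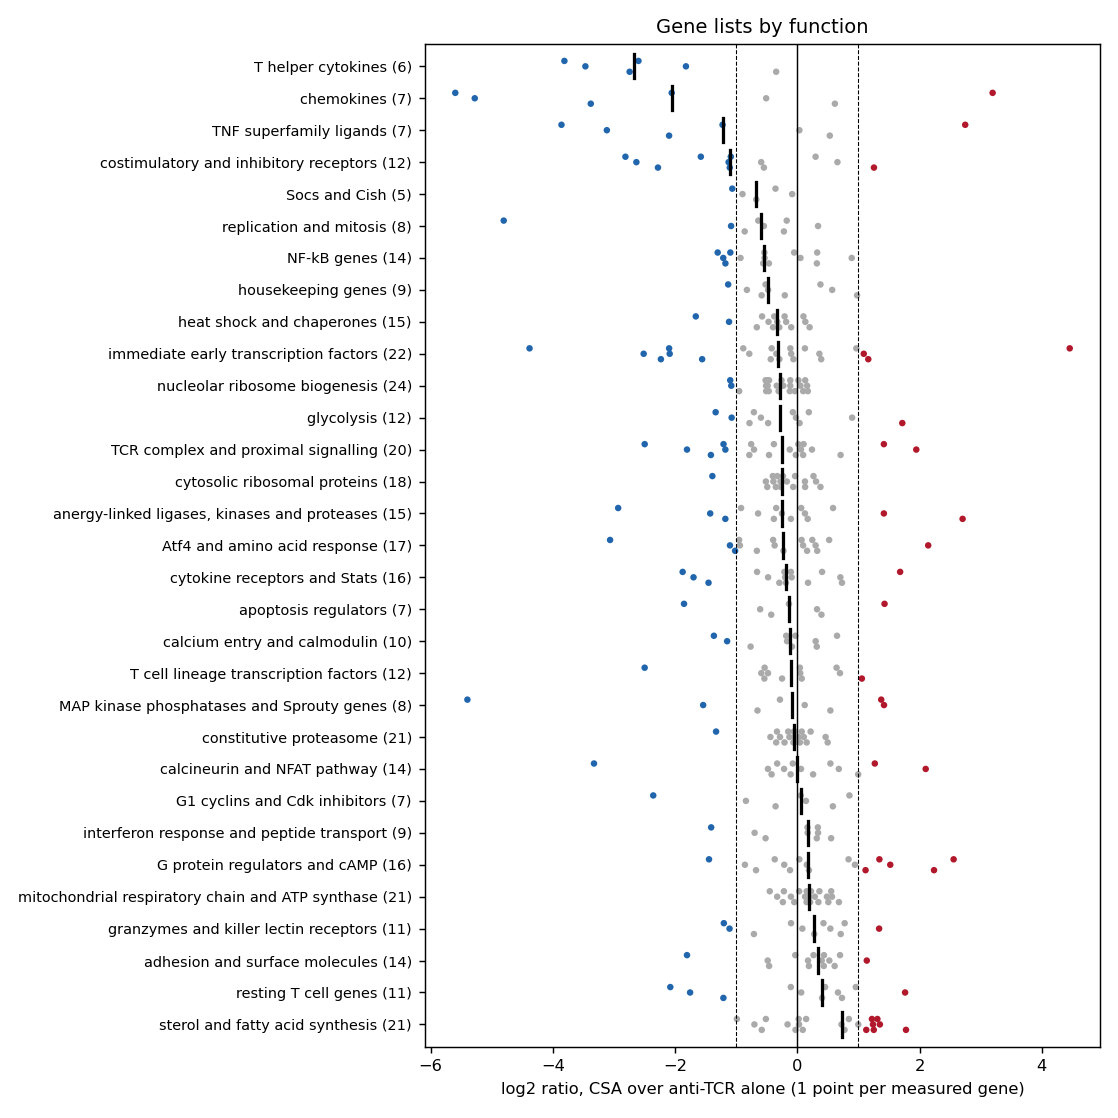
Log2 ratio of CSA over anti-TCR alone for each measured gene of the fixed lists, with the number measured in brackets and the median as a black bar. Blue and red points are at least 2-fold lower or higher, and the medians run from -2.67 for T helper cytokines to 0.72 for sterol and fatty acid synthesis.

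In 2 genes 1 bright probe set rose and another fell. Slc1a5, a glutamine transporter gene, read 116 with mock, 1409 with anti-TCR, 427 with CSA, 326 with PKCi and 693 with Combo on chip A, a log2 ratio of -1.72. Its brightest probe set, f-suffixed and on chip C, read 7987, 2094, 9243, 8042 and 7846.5, a log2 ratio of 2.14, so that its rise in the counts above rests on a probe set that may share sequence. A further f-suffixed probe set of chip C gave -0.50. Taf13, a subunit gene of the general transcription factor TFIID, gave -1.22 on chip B and 1.43 on chip C. In the Slc1a5 reading of 2.14 and the Taf13 reading of 1.43, both on chip C, anti-TCR alone was the lowest of the 5 arrays.

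The rules used thresholds that neighbouring genes straddled. At the brightness minimum of 204.4 on chip A, Rap1a (204.5 with anti-TCR and 133 with CSA) was kept and Cd96 (107 and 204.3) was not, although Cd96 differed more. At the 2-fold limit Sox12 (299.6 and 600.4) counted as higher and Arpc5l (684.5 and 1369) did not, and 4933427D14Rik (260.5 and 130.1) counted as lower and Grpel2 (746.5 and 373.5) did not. Of the kept probe sets 221 carry several symbols and 1113 carry none, and 51 of these rose and 84 fell. They are in the counts of probe sets and not in those of genes.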

How the data were processed

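The authors deposited 1 table of array intensity values per treatment and chip type (12422, 12411 and 11868 probe sets on A, B and C). The values are linear, 0 are below 0, and the 5 arrays of each chip type have 2% trimmed means that agree within 0.242%, so the arrays had been brought to a common level before deposit. How this scaling was done is not stated in the labels or tables used here. No detection calls were used. Array medians lay between 46.95 and 70.8. Groups come from the array titles. Symbols come from the platform annotation: 29131 probe sets carry 1, 724 several and 6846 none, and 29044 matched a current gene table, with 0 changed. Suffixed probe sets number 8897.

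Ratios, counts and list medians were computed with Python 3.11.15, numpy 2.4.6 and pandas 2.3.3, without further normalization. The steps were run on simulated data with differences of at least 4-fold planted in bright genes and noise below the technical SD. That run does not show how calls near 2-fold or near the floor behave. Named genes are, in each direction, the 12 best supported by several probe sets and the 10 largest ratios without a suffix, the 3 highest and 3 lowest members of each list, genes with opposed probe sets, and the Egr, Nr4a and Nfatc families; others, such as Rasa1, Ccr2, Fkbp5, Tgif1, Hdac11 and Pou2f2, were chosen after their values were seen. Members, lists and rules were chosen with earlier results of these data known. Alternatives were 0.5 and 2 times the floor, minima of 2 and 8 times the floor, median scaling, quantile normalization, leaving out suffixed probe sets or each chip type, and the mean of a gene's kept probe sets. Promoters are from the RefSeq table of GRCm38.p6.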

Additional observations from a re-analysis of the deposited data

How the results depend on the processing

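No paired analysis was possible because each treatment has 1 array on a chip type, and the 3 chip types share a pool but not their probe sets. The counts followed the brightness minimum. With 8 times the floor as minimum 195 probe sets rose and 297 fell, 138 genes rose and 193 fell, and 17 rose at least 4-fold; with 2 times the floor as minimum 849 probe sets rose and 811 fell, and 467 genes rose and 413 fell. With the floor itself at 2 times its value 17 genes rose at least 4-fold, and counts at 2-fold cannot move with the floor by construction. Without chip A 308 probe sets and 182 genes fell, 54 of the genes at least 4-fold; without chip C 229 probe sets rose and 312 fell, 163 genes rose, and agreement of probe sets was 97.8% for genes that fell and 96.2% for those that rose, and fewer probe sets are tested in both cases. The mean of the kept probe sets turned Slc1a5 to -0.026 and Taf13 to 0.11, which both hold probe sets of opposite sign. The other 67 values of counts stayed within 1.5 times. Of the list medians 264 moved by less than the technical SD and 8 by more; of the values of named genes 1423 moved by less and 41 by more in the same direction. The balance of rises and falls near 2-fold depended on these choices: of the changed genes 47.6% rose as reported, 43.3% with median scaling and 41.7% with the minimum at 8 times the floor, but 53.1% with it at 2 times the floor and 50.7% without chip A, where more genes rose than fell. With 1 array per group, pooled times and 1 clone, the values describe these RNA pools; signal near the floor limits what can be said of dim genes such as Il2 and Cd40lg.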
